A study of Homo sapiens with 6 samples.

Results

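The fibrillar collagens were followed through the first days of a chemical protocol applied to BJ cells, an established line of human foreskin fibroblasts. They were taken as the rows of the deposited gene table that carry the names COL1A1, COL1A2, COL3A1, COL5A1, COL5A2, COL5A3, COL11A1, COL24A1 and COL27A1, which makes 9 of the 60671 named genes, and all 9 passed the filter on low counts. The series is RNA sequencing of 6 libraries, 2 from each of day 0, day 2 and day 5, and by its title it concerns the chemical reprogramming of fibroblasts into cells called FiNs. Day 0 libraries came from cells grown in DMEM with 10% serum and day 2 libraries from cells then given neuronal induction medium with 10 µM forskolin. Day 5 libraries came from cells that had been in neuronal maturation medium with 10 µM forskolin since day 2. Cells were seeded on poly-D-lysine, and all groups are labelled wild type. Forskolin activates adenylyl cyclase and so raises cyclic AMP. Against day 0, time, medium and forskolin changed together, and serum, stated only for day 0, may have changed too, so their parts cannot be told apart. Between day 2 and day 5 the stated forskolin dose was the same, while time and medium changed together and cannot be told apart. The labels do not say whether the pair of libraries of each day are separate cultures. The p-values therefore rest on the spread between these libraries alone, and that spread may be technical.

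Fibrillar collagens are the rope-like proteins of skin, tendon, bone and cartilage. Each chain holds a long stretch of Gly-X-Y triplets, and a trio of chains winds into a rigid helix that is secreted with propeptides, trimmed outside the cell and packed side by side into fibrils. Type I collagen, the main product of dermal fibroblasts, joins a pair of α1 chains from COL1A1 with a single α2 chain from COL1A2. Type III collagen is a homotrimer of COL3A1 that shares fibrils with type I, and the type V chains of COL5A1, COL5A2 and COL5A3 start and thin those fibrils. COL11A1 encodes a related chain known from cartilage, and COL24A1 and COL27A1 encode later-described chains with shorter, interrupted helices.

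The coding sequence shows what makes these genes a family. In GENCODE release 29 transcripts the longest uninterrupted run of Gly-X-Y triplets, read from codons of the form GGN, held 338 triplets in COL1A1, 339 in COL1A2, 343 in COL3A1, 338 in COL5A1, 339 in COL5A2, 337 in COL5A3 and 338 in COL11A1. It held 216 in COL24A1 and 217 in COL27A1. The first 36 bases of that run are printed for both type I chains, for COL3A1, for the chain with the widest range over the days (COL5A3) and for a chain of the shorter kind (COL27A1). Capitals mark the glycine codons, and all read 5′ to 3′ on the coding strand.
COL1A1: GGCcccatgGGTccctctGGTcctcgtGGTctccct
COL1A2: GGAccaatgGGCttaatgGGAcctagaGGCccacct
COL3A1: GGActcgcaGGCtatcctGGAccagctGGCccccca
COL5A3: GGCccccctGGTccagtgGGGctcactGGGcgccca
COL27A1: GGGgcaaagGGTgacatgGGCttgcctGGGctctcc
The repeat is one of codons and not of letters. No run of 31 bases in any member's transcript was found in another member, and at most 0.0929% of such runs were shared with any other gene, except in COL5A3, where 2.57% were shared with the antisense gene AC008742.1 at its own locus.

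On GRCh38 the members are spread over 6 chromosomes. COL1A1 (ENSG00000108821) is at chr17:50183289-50201632 on the minus strand and COL1A2 (ENSG00000164692) at chr7:94394561-94431232 on the plus strand. COL3A1 (ENSG00000168542, plus strand) at chr2:188974320-189012746 and COL5A2 (ENSG00000204262, minus strand) at chr2:189031896-189225312 lie tail to tail, with 19149 bases between them. COL5A1 (ENSG00000130635) is at chr9:134641774-134844843 and COL27A1 (ENSG00000196739) at chr9:114155560-114312511, both on the plus strand. COL5A3 (ENSG00000080573) is at chr19:9959561-10010471, COL11A1 (ENSG00000060718) at chr1:102876467-103108872 and COL24A1 (ENSG00000171502) at chr1:85729233-86156943, all on the minus strand. All 9 are protein-coding genes, and a count here is for the whole gene. Whether the counting used strand is not given in the sources used here, but the genes annotated over them on the opposite strand had few counts, at most 15 in a library for AC002074.1 over COL1A2 and 4 for AC008742.1 over COL5A3.

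Library totals ran from 17599504 counts in a day 5 library to 27941919 in a day 2 library. Levels within a gene are given as CPM, the share of a library's counts scaled by TMM factors, and levels between genes as TPM, a like share of counts divided by gene length. Calls are from edgeR's quasi-likelihood test over 16327 genes, with Benjamini-Hochberg adjusted p under 0.05 and log2 fold changes given with their standard errors. Libraries of a day differed little (common biological coefficient of variation 3.33%) and most genes were called in each comparison, so a second test asked whether a change was over 2-fold (glmTreat). The 3 comparisons share libraries, so their values stand side by side and are not independent.

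Fibrillar collagen mRNA took a larger share of the transcriptome on day 5 and a smaller one on day 2 than on day 0, and its chains did not move together. The summed counts of the 9 genes were 1.49% and 1.52% of a library on day 0, 1.06% and 1.08% on day 2, and 2.5% and 2.55% on day 5. In bulk RNA, fewer cells of a kind and less RNA per cell cannot be told apart. In day 2 against day 0, 3 members were higher and 5 lower, where 66.8% of all tested genes were called, 33.4% higher and 33.4% lower. In day 5 against day 0, 6 were higher and 3 lower, where 69.9% of all tested genes were called, 35.8% higher and 34.1% lower. In day 5 against day 2 all 9 were higher, where 65.8% of all tested genes were called, 32.1% higher and 33.7% lower. Their log2 fold changes there ran from 0.17 ± 0.02 in COL5A2 to 4.12 ± 0.11 in COL5A3. The median log2 fold change of the members was -0.11, 1.13 and 1.23 in these comparisons in turn, and that of all tested genes was 0.00304, 0.0449 and 0.00662. With library totals in place of TMM factors the median of all tested genes moved to -0.18, -0.16 and -0.01, and 38.1%, 39.0% and 47.3% of called genes were higher, against 50.01%, 51.2% and 48.8% with TMM factors. The members' counts by the test of any change were the same under both scalings.

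**Figure D1:**
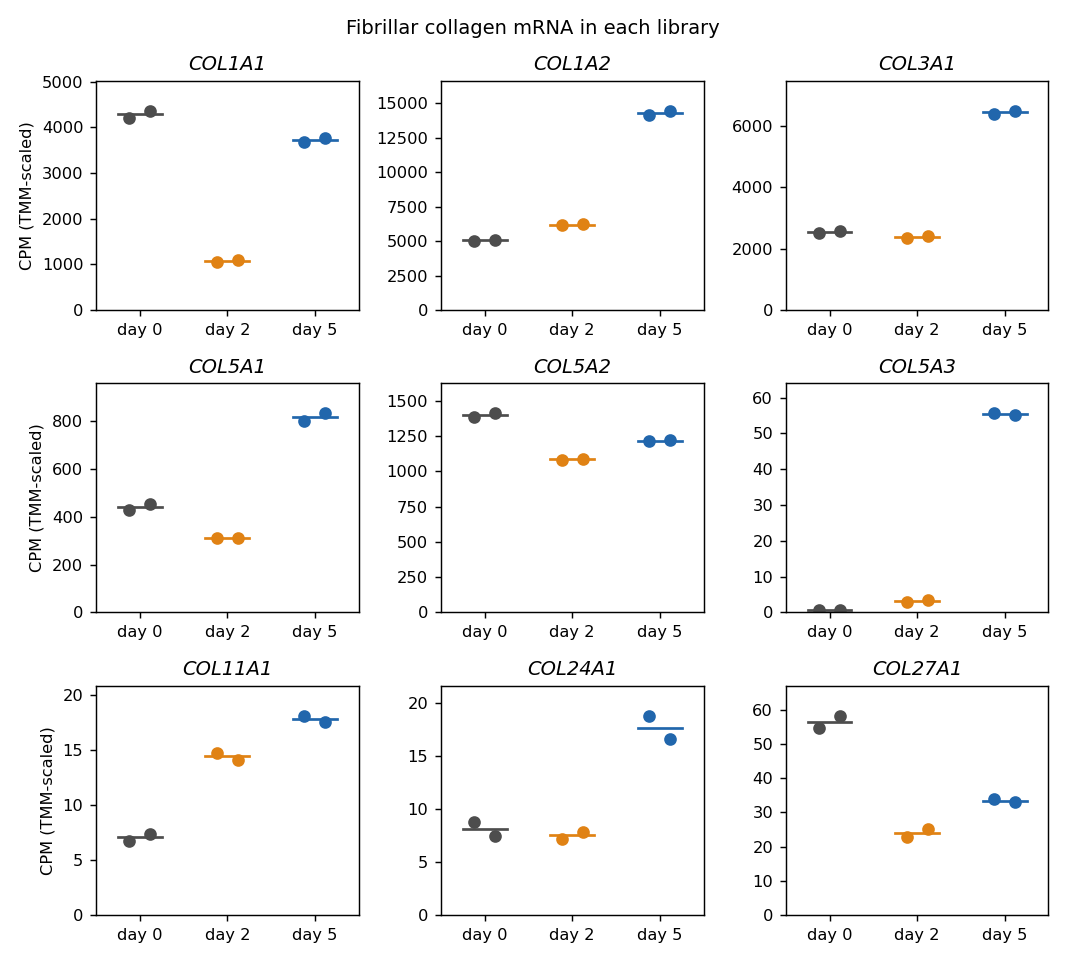
TMM-scaled CPM of each member in every library (points, 2 a day) with the mean of the day as a line, in 1 panel a gene, with days 0, 2 and 5 on the x axis and a linear y axis from 0. COL1A1 was lowest on day 2 at 1047 and 1105 CPM, while COL5A3 reached 55.6 and 55.2 CPM on day 5.

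COL1A1 and COL1A2, whose products are built into the same type I molecule, parted on day 2. COL1A1 had 4206 and 4363 CPM on day 0, 1047 and 1105 CPM on day 2, and 3676 and 3775 CPM on day 5. Both day 2 libraries lay far below those of the other days, and the day 5 libraries stayed below those of day 0. COL1A1 thus averaged 1076 ± 41.4 CPM on day 2 and 4284 ± 111 CPM on day 0 (SD, n = 2 each), a 3.98-fold lower level on day 2 (log2 fold change -1.99 ± 0.02; edgeR, adjusted p = 2.5e-20). On day 5 it stood 3.46-fold above day 2 (1.79 ± 0.02 on that scale, edgeR adjusted p = 7.7e-20) and slightly lower than on day 0, by -0.20 ± 0.02 on the log2 scale (edgeR adjusted p = 3.3e-07).

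COL1A2 did not have this dip. Its libraries held 4996 and 5111 CPM on day 0, 6139 and 6265 CPM on day 2, and 14195 and 14457 CPM on day 5, so that each day lay above the one before with no overlap. The log2 fold change was 0.30 ± 0.01 in day 2 against day 0 (edgeR adjusted p = 4.9e-12), and 0.11 with library totals in place of TMM factors. In day 5 against day 0 it was 1.5 ± 0.01, a 2.84-fold higher level (edgeR adjusted p = 6.4e-22). Of the type I genes COL1A2 passed the test of a change over 2-fold in day 5 against day 0 and in day 5 against day 2, and COL1A1 in day 2 against day 0 and day 5 against day 2.

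A ratio of both genes within a library does not depend on how libraries are scaled. For every COL1A2 count there were 0.842 and 0.854 COL1A1 counts on day 0 (95% exact binomial intervals 0.835 to 0.849 and 0.847 to 0.860), 0.171 and 0.176 on day 2 (0.168 to 0.173 and 0.174 to 0.179), and 0.259 and 0.261 on day 5 (0.257 to 0.261 and 0.259 to 0.263). These intervals cover counting error only. The days did not overlap. The ratio was 4.89-fold lower on day 2 than on day 0 (log2 difference -2.29), 3.26-fold lower on day 5 than on day 0 (-1.70) and higher on day 5 than on day 2 (0.58). Libraries of a day differed by 0.012 to 0.049 on the same log2 scale. With 2 libraries against 2 the exact two-sided permutation p was 0.333 in each case, which is the smallest this design can give. Per gene length there were 0.722 and 0.732 COL1A1 transcripts for each of COL1A2 on day 0, 0.146 and 0.151 on day 2, and 0.222 and 0.224 on day 5. By counts and per deposited length, COL1A2 was thus above COL1A1 in all 6 libraries, although the protein needs more of the α1 chain. How that length was defined is not given in the sources used here, and protein was not measured in these libraries.

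**Figure D2:**
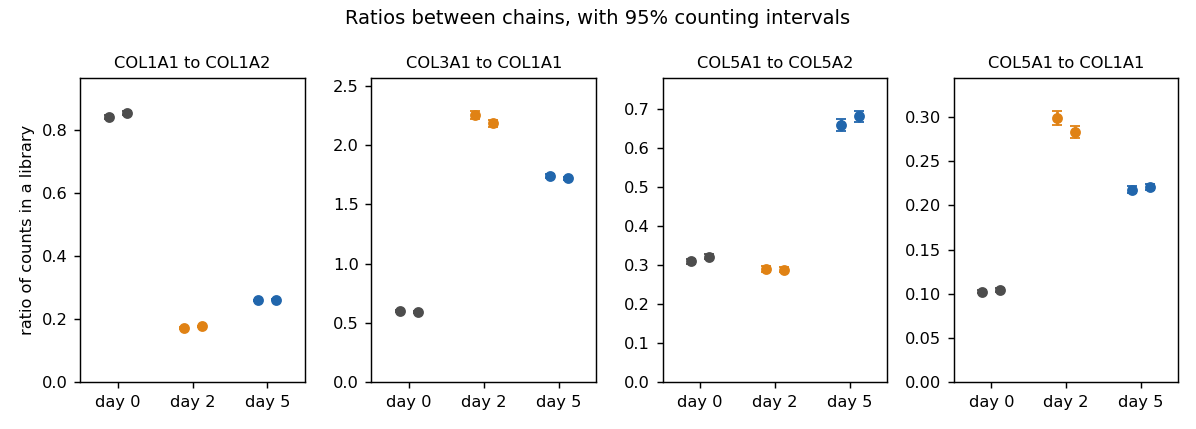
Count ratios between pairs of member genes within each library (points, 2 a day, days 0, 2 and 5 on the x axis), on a linear y axis from 0, with bars for 95% exact binomial counting intervals. COL1A1 to COL1A2 was lowest on day 2, at 0.171 and 0.176, and COL5A1 to COL5A2 was highest on day 5, at 0.659 and 0.681.

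COL3A1, the type III chain, differed little on day 2 and was higher on day 5. It had 2513 and 2573 CPM on day 0, 2361 and 2414 CPM on day 2, and 6394 and 6489 CPM on day 5. Day 2 lay just below day 0 (-0.09 ± 0.02 as log2 fold change, edgeR adjusted p = 6.7e-05), and day 5 lay 2.53-fold above it (log2 fold change 1.34 ± 0.02, over 2-fold by glmTreat). For each COL1A1 count there were 0.598 and 0.590 COL3A1 counts on day 0, 2.26 and 2.18 on day 2, and 1.74 and 1.72 on day 5. COL3A1 therefore stood above COL1A1 on days 2 and 5 and below it on day 0, by counts and also per length.

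The 3 type V genes had 3 courses. COL5A1 had 429.8 and 453.9 CPM on day 0, 313.1 and 313.0 CPM on day 2, and 800.1 and 833.6 CPM on day 5, a 1.41-fold lower level on day 2 than on day 0 (-0.50 ± 0.03 as log2 fold change, edgeR adjusted p = 6.3e-11) and a 1.85-fold higher one on day 5 than on day 0 (0.89 ± 0.03). COL5A2, which pairs with COL5A1 in the common form of type V collagen, had 1389 and 1411 CPM on day 0, 1084 and 1087 CPM on day 2, and 1213 and 1223 CPM on day 5. It was lower on both later days, with log2 fold changes of -0.37 ± 0.02 on day 2 and -0.20 ± 0.02 on day 5 against day 0, and 0.17 ± 0.02 higher on day 5 than on day 2. Although COL5A2 and COL3A1 are neighbours, they moved apart in day 5 against day 0, where COL5A2 was lower, by -0.20 ± 0.02 on the log2 scale, and COL3A1 2.53-fold higher. The count ratio of COL5A1 to COL5A2 was 0.309 and 0.322 on day 0, 0.289 and 0.288 on day 2, and 0.659 and 0.681 on day 5, that is 2.13-fold higher on day 5 than on day 0 (exact permutation p = 0.333, the smallest possible). Set against COL1A1, the main partner in mixed fibrils, COL5A1 had 0.102 and 0.104 counts for each COL1A1 count on day 0, 0.299 and 0.283 on day 2, and 0.218 and 0.221 on day 5.

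COL5A3 had the widest range of the family. It encodes a type V chain known from a narrower set of tissues than COL5A1 and COL5A2. It had 14 and 21 counts on day 0 (0.552 and 0.722 CPM), 70 and 92 counts on day 2 (2.92 and 3.42 CPM), and 927 and 1012 counts on day 5 (55.6 and 55.2 CPM). No days overlapped, and each step was upward. Its log2 fold change was 2.30 ± 0.22 in day 2 against day 0 (edgeR adjusted p = 7.5e-08), 4.12 ± 0.11 in day 5 against day 2 and 6.42 ± 0.14 in day 5 against day 0 (edgeR adjusted p = 1.0e-16), the last an 87.0-fold higher mean CPM. Of all tested genes, 99.3% had a lower log2 fold change in day 5 against day 0. COL5A3 was also the one member over 2-fold higher by glmTreat in all 3 comparisons. Its mRNA nevertheless made up only 3.18% and 3.10% of type V TPM on day 5, against 0.0350% and 0.0446% on day 0.

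COL11A1, COL24A1 and COL27A1 were scarce throughout. COL11A1 had 6.75 and 7.39 CPM on day 0, 14.7 and 14.1 CPM on day 2, and 18.1 and 17.5 CPM on day 5. It was higher in day 2 against day 0 (1.03 ± 0.11 as log2 fold change, edgeR adjusted p = 3.1e-07) and in day 5 against day 0 (1.33 ± 0.11). The step in day 5 against day 2 was small (0.31 ± 0.10, edgeR adjusted p = 0.016), and this call did not hold in DESeq2 (adjusted p = 0.0859), with no filter on low counts (0.0661), without the second day 2 library (0.101) and without the first day 5 library (0.0773).

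COL24A1 had 8.72 and 7.46 CPM on day 0, 7.2 and 7.78 CPM on day 2, and 18.8 and 16.5 CPM on day 5. Days 0 and 2 overlapped, and their difference was not called (log2 fold change -0.11 ± 0.13, edgeR adjusted p = 0.50). Without the first day 0 library it was 0.01. Day 5 was 2.18-fold above day 0 (1.13 ± 0.13). COL27A1 went the other way, with 54.7 and 58.3 CPM on day 0, 22.8 and 25.2 CPM on day 2, and 33.8 and 33.0 CPM on day 5. Both later days lay below day 0, by 2.35-fold on day 2 (-1.23 ± 0.07 as log2 fold change, edgeR adjusted p = 2.6e-11) and by 1.69-fold on day 5 (-0.76 ± 0.07), and day 5 lay above day 2 (0.48 ± 0.07).

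**Figure D3:**
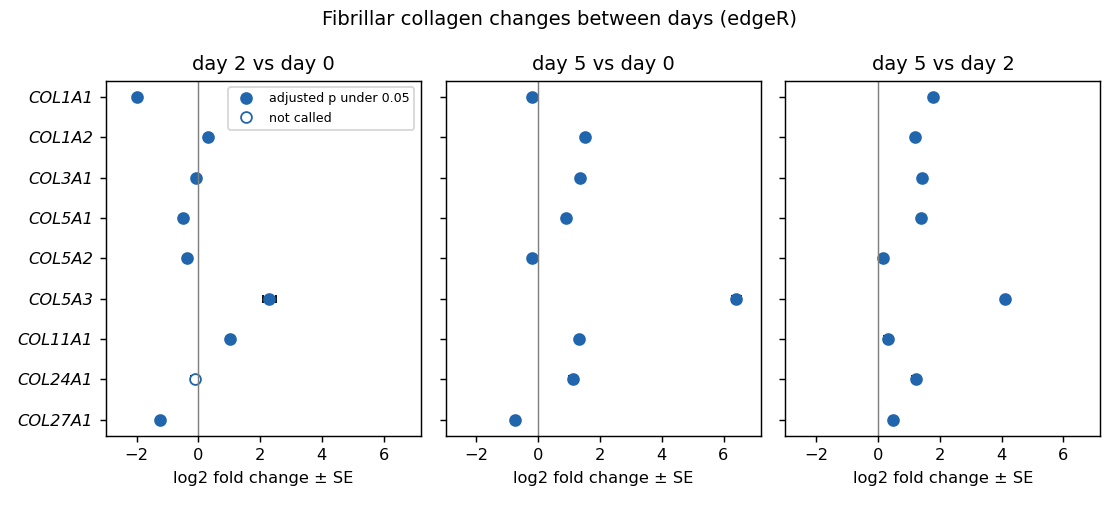
log2 fold changes of the 9 members on the x axis in day 2 against day 0, day 5 against day 0 and day 5 against day 2 (filled points called at an adjusted p under 0.05, open points not called), with bars of 1 standard error from edgeR and a line at 0. COL5A3 lies farthest to the right in all 3 panels, and all 9 members lie right of 0 in day 5 against day 2.

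By the test of a change over 2-fold, 1 member was higher (COL5A3) and 2 were lower (COL1A1 and COL27A1) in day 2 against day 0, where 6.99% of all tested genes were higher and 5.54% lower, 12.5% in all. Without the first day 2 library the count of lower members was 1. In day 5 against day 0 the higher members were COL1A2, COL3A1, COL5A3 and COL11A1, which is 4 of 9, and none of the others passed, where 20.1% of all tested genes passed, 9.74% higher and 10.3% lower. COL11A1 no longer passed with library totals (glmTreat in edgeR, adjusted p = 0.191) or without the first day 0 library (adjusted p = 0.0594), which left 3 of 9. COL1A1, COL5A2 and COL27A1 were called lower by the test of any change in that comparison. In day 5 against day 2 the 5 higher members were COL1A1, COL1A2, COL3A1, COL5A1 and COL5A3, where 14.4% of all tested genes passed, 6.41% higher and 7.96% lower. COL24A1 lay near the threshold there (glmTreat in edgeR, adjusted p = 0.0772), so the count of 5 is not firm. Its log2 fold change was 1.23 ± 0.13, and 1.14 and 1.32 without the first and the second day 5 library.

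The remaining fibrillar chains, both known from cartilage, were scarce. COL2A1, the type II chain, was near the floor of detection in 1 library of each day, with 15 and 1 counts on day 0, 19 and 2 on day 2, and 18 and 0 on day 5, where a count of 0 allows up to 0.164 CPM. It was called in none of the comparisons (edgeR adjusted p = 0.73 in day 2 against day 0, 0.56 in day 5 against day 0 and 0.82 in day 5 against day 2). COL11A2 had 60 and 35 counts on day 0, 56 and 30 on day 2, and 56 and 55 on day 5, above the floor in every library. Its log2 fold change was 0.84 ± 0.37 in day 5 against day 0 (edgeR adjusted p = 0.0496), a call that was lost with library totals, and 0.89 ± 0.37 in day 5 against day 2 (edgeR adjusted p = 0.043).

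Compared per length, the order of the chains was led by COL1A2 in every library. At day 0 it averaged 2267 ± 30.1 TPM, followed by COL1A1 (1648 ± 38.2 TPM), COL3A1 (1054 ± 14.7 TPM), COL5A2 (467 ± 3.95 TPM), COL5A1 (119 ± 4.27 TPM) and COL27A1 (16.4 ± 0.698 TPM) (SD, n = 2 each). COL24A1 (2.69 ± 0.304 TPM), COL11A1 (2.19 ± 0.135 TPM) and COL5A3 (0.233 ± 0.0433 TPM) came last. At day 2 COL3A1 (855 ± 14.4 TPM) had passed COL1A1 (358 ± 14.1 TPM), which was then near COL5A2 (312 ± 0.895 TPM). The scarcest that day were COL11A1 (3.87 ± 0.118 TPM), COL24A1 (2.15 ± 0.118 TPM) and COL5A3 (1.00 ± 0.115 TPM). At day 5 COL1A2 averaged 6203 ± 103 TPM, COL3A1 2577 ± 36.3 TPM and COL1A1 1384 ± 31 TPM. COL5A3 had moved up to sixth place at 19.6 ± 0.0146 TPM, above COL27A1 at 9.40 ± 0.124 TPM. COL24A1, at 5.33 and 6.02 TPM, and COL11A1, at 5.27 and 5.41 TPM, overlapped on day 5 and could not be ordered.

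Within the summed TPM of the 9 genes, the type I chains together kept a near constant share while their makeup changed. They were 70.2% and 70.3% of the sum on day 0, 68.7% and 68.9% on day 2, and 70.1% and 70.2% on day 5. COL1A1 alone was 29.4% and 29.7% on day 0, 8.76% and 9.05% on day 2, and 12.7% and 12.9% on day 5, and COL1A2 was 40.7% and 40.6%, 59.9% and 59.8%, and 57.4% and 57.4% on the same days. COL3A1 was 18.9% in both day 0 libraries, 21.3% in both day 2 libraries, and 23.9% and 23.8% on day 5. The type V chains were 10.5% of the sum in both day 0 libraries, 9.72% and 9.53% on day 2, and 5.77% and 5.78% on day 5. The 4 scarcest chains, among them COL5A3, which is also counted in type V, together held between 0.320% and 0.390%. Within them COL27A1 was 0.289% and 0.300% on day 0 and 0.0888% and 0.0851% on day 5. COL5A3 was 0.00368% and 0.00468% on day 0 and 0.184% and 0.179% on day 5, so opposite moves lay under the even sum.

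**Figure D4:**
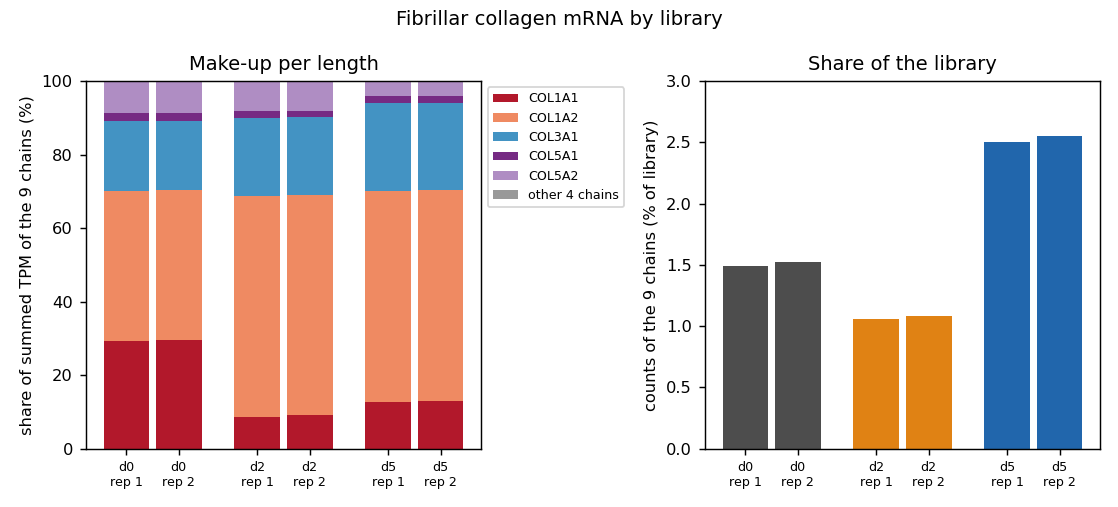
Left, share of the summed TPM of the 9 genes taken by each chain in each library (stacked bars, 2 libraries a day, days 0, 2 and 5 from left to right, the 4 scarcest chains as 1 class too thin to see). Right, counts of the 9 genes as a percentage of the library. The COL1A1 part was 29.4% and 29.7% on day 0 and 8.76% and 9.05% on day 2, and the bars on the right are highest on day 5, at 2.5% and 2.55%.

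Promoters (250 bases before to 50 after the start, RefSeq, GRCh38.p14) were matched for 5 of the 9 genes: COL5A1, COL5A3, COL11A1, COL24A1 and COL27A1. Those of COL5A3, the chain with the largest increase, and of COL27A1, which was lower at both later days, are printed 5′ to 3′ on the strand of the gene. Capitals mark the letters CCAAT, known to bind NF-Y, and GGGCGG, known to bind SP1, or their reverse complements. The COL5A3 window is chr19:10010455-10010754 on the minus strand, and the COL27A1 window is chr9:114155287-114155586 on the plus strand.
COL5A3 promoter: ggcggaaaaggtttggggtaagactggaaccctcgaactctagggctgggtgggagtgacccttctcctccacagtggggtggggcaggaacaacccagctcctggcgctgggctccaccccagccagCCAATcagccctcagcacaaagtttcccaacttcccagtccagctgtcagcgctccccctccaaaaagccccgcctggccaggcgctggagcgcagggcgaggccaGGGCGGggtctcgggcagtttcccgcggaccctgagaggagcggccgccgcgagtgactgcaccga
COL27A1 promoter: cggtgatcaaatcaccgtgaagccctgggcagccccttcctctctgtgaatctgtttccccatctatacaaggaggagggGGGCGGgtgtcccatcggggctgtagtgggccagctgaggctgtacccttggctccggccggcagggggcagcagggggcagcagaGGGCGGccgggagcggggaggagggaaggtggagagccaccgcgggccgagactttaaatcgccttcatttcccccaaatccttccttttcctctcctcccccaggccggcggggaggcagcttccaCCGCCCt
The COL5A3 window held CCAAT once, starting at base -122, and GGGCGG once, at -16. The COL27A1 window held GGGCGG 3 times, counting both strands, and no CCAAT. On either strand, CCAAT was found in 35.7% of 27305 promoters of this length and GGGCGG in 44.6%. The cyclic AMP response element TGACGTCA was found in none of the windows of these 5 genes and in 1.98% of all promoters. Its shorter form TGACG, which the longer one contains, was found in COL11A1 at base 3 after the start and in 25% of all promoters, and TATAAA was in none of these windows and in 11.9% of all promoters. These are matches of letters only.

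Of 20 genes that modify and fold procollagen in the endoplasmic reticulum, 15 were higher and 2 lower in day 2 against day 0, where 33.4% of all tested genes were higher and 33.4% lower. They were 11 higher and 7 lower in day 5 against day 0 (35.8% and 34.1% of all tested genes), and 8 higher and 10 lower in day 5 against day 2 (32.1% and 33.7%). The counts of the lists that follow stand against these same shares. With library totals in place of TMM factors the first of these became 9 higher and 6 lower, and the next 8 higher and 9 lower, so the balance depends on the scaling. P4HA3, an α subunit of prolyl 4-hydroxylase, had 9685 and 11092 counts on day 5 against 110 and 119 on day 0 (log2 fold change 7.14 ± 0.05 in day 5 against day 0). PPIB, a prolyl isomerase of the endoplasmic reticulum, was higher by 1.43 ± 0.02, and FKBP10, another one, by 1.04 ± 0.02. P3H2, a prolyl 3-hydroxylase, was lower (-3.55 ± 0.08). SERPINH1, the collagen chaperone HSP47, was named after its values were seen. Like COL1A1 it was lower in day 2 against day 0 (-0.30 ± 0.02), but it was higher in day 5 against day 0 (0.46 ± 0.02).

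Of 13 genes for the export of procollagen, 7 were higher and 3 lower in day 2 against day 0, and 6 higher and 4 lower in day 5 against day 0 (6 and 6, and 4 and 7, with library totals). Between day 5 and day 2, 5 were higher on day 5 and 6 lower. The coat subunits SEC23A (0.63 ± 0.03) and SEC24D (0.51 ± 0.04) and the cargo receptor MIA3 (0.70 ± 0.06) were higher in day 5 against day 0, and KLHL12, which helps to enlarge the carriers, was lower (-0.83 ± 0.07). Among the 5 tested of 8 genes that remove propeptides, 3 were lower and the others not called in day 2 against day 0 (4 lower with library totals). In day 5 against day 0, 2 were higher and 3 lower (1 and 3 with library totals). Set against day 2, day 5 had 2 higher and 1 lower. ADAMTS2, which cuts the N-propeptide, had 741 and 813 counts on day 5 against 3863 and 4491 on day 0 (log2 fold change -1.79 ± 0.04). BMP1, which cuts the C-propeptide, was higher (0.65 ± 0.04), and PCOLCE (-0.13 ± 0.03) and ADAMTS14 (-0.64 ± 0.21) were lower.

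The 5 lysyl oxidases, which crosslink fibrils, were split as 2 higher and 3 lower in both day 2 and day 5 against day 0, and as 1 higher and 2 lower in day 5 against day 2. LOX had 440.8 and 440.1 CPM on day 2 against 148 and 155 CPM on day 0 (log2 fold change 1.54 ± 0.03), on the day when COL1A1 was lowest, and stood 0.45 ± 0.03 above day 0 on day 5. LOXL2 was lower on day 5 than on day 0 (-1.71 ± 0.03), as was LOXL1 (-0.53 ± 0.04), while LOXL3 was higher (0.49 ± 0.05). Of 13 tested of 14 genes of fibril assembly, 4 were higher and 6 lower in day 2 against day 0 (4 and 8 with library totals). In day 5 against day 0, 6 were higher and 5 lower, which became 5 and 7 with library totals. Between day 5 and day 2, 8 were higher on day 5 and 4 lower. DCN, the proteoglycan decorin that coats type I fibrils, was lower in day 5 against day 0 (-2.37 ± 0.02), and so was the matrix glycoprotein TNC (-2.88 ± 0.03). POSTN, which binds type I collagen, was higher (2.74 ± 0.04), and ABI3BP had 3365 and 3698 counts on day 5 against 15 and 8 on day 0 (8.88 ± 0.11).

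Among 8 collagen receptor genes, 6 were higher and 1 lower in day 2 against day 0 (4 and 1 with library totals), where 33.4% of all tested genes were higher and 33.4% lower. In day 5 against day 0, 3 were higher and 3 lower (3 and 4 with library totals). Set against day 2, day 5 had 3 higher and 4 lower. DDR2, a receptor tyrosine kinase for fibrillar collagen, was higher in day 5 against day 0 (1.54 ± 0.03), as were DDR1 (0.99 ± 0.04) and the endocytic receptor MRC2 (0.52 ± 0.02). ITGB1, the shared β subunit of the collagen-binding integrins, was lower (-0.96 ± 0.02). Of 9 tested of 12 proteases and inhibitors, 7 were higher and 1 lower in day 2 against day 0 (33.4% and 33.4% of all tested genes), and 5 higher and 4 lower in both day 5 against day 0 and day 5 against day 2. With library totals, day 5 against day 0 had 4 higher and 5 lower. The inhibitor TIMP3 had 6240 and 6207 CPM on day 5 against 269 and 275 CPM on day 0 (4.52 ± 0.02). MMP14 (1.08 ± 0.02) and MMP2 (0.89 ± 0.02) were higher in day 5 against day 0, and CTSK, a lysosomal protease that cleaves the helix, was lower (-2.05 ± 0.03).

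**Figure D5:**
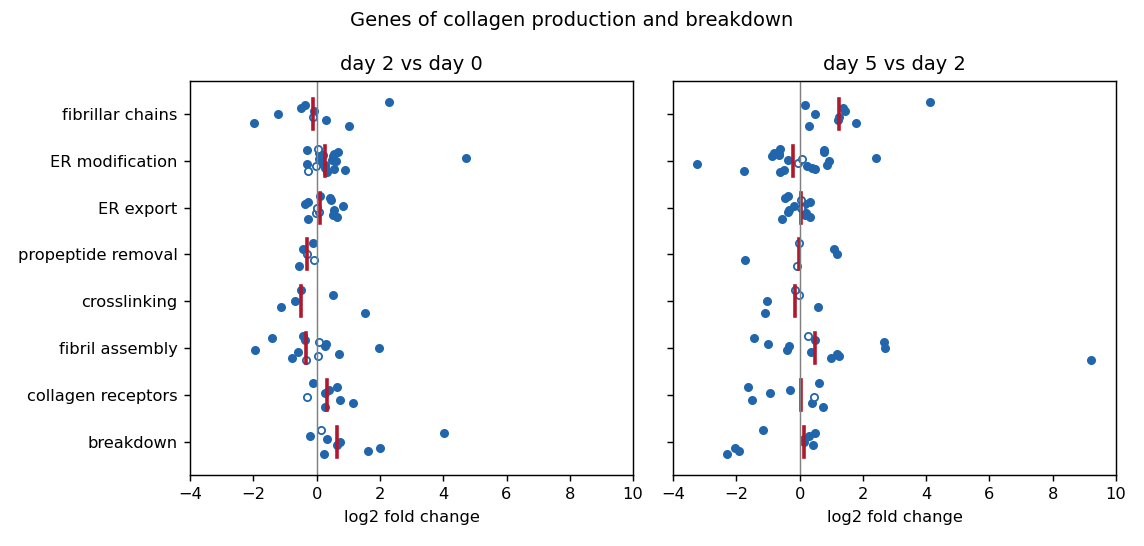
log2 fold change of each tested gene in 8 lists, the fibrillar chains at the top, in day 2 against day 0 (left) and day 5 against day 2 (right). Points are genes, filled where edgeR called them and open where it did not, a red bar is the median of the list and a grey line marks 0. The median of the fibrillar chains was -0.11 on the left and 1.23 on the right, and that of the endoplasmic reticulum (ER) modification list 0.26 and -0.21.

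Of 23 genes known to act on collagen transcription or mRNA, 12 were higher and 8 lower in day 2 against day 0 (10 and 9 with library totals). In day 5 against day 0, 11 were higher and 9 lower, which became 9 and 10 with library totals. Between day 5 and day 2, 9 were higher on day 5 and 11 lower (9 and 12 with library totals). PRRX1, a mesenchymal homeobox factor, had 137 and 127 CPM on day 5 against 6.23 and 7.90 CPM on day 0 (log2 fold change 4.21 ± 0.08), and CEBPB was higher too (1.48 ± 0.04). CREB3L1, which in mouse bone acts on the type I collagen genes, was lower in day 2 against day 0 (-1.22 ± 0.04) and in day 5 against day 0 (-1.85 ± 0.05), and YBX1 was lower on day 5 (-0.82 ± 0.03). LARP6, which binds type I collagen mRNAs and was named after its values were seen, was lower on both days (-0.63 ± 0.05 and -0.58 ± 0.05). Among 9 genes for TGF-β ligands, latent binding proteins and receptors, 5 were higher and 3 lower in day 2 against day 0. In day 5 against day 0, 7 were higher and 2 lower (6 and 2 with library totals). Set against day 2, day 5 had 5 higher and 3 lower. LTBP1 (1.35 ± 0.02) and the co-receptor TGFBR3 (3.39 ± 0.07) were higher in day 5 against day 0, and LTBP2 (-3.78 ± 0.05) and the receptor TGFBR2 (-1.25 ± 0.03) were lower.

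The labels call the day 2 and day 5 cells induced neurons and the day 0 cells fibroblasts. All 11 fibroblast markers were detected on every day, with a summed level of 13725 to 13808 CPM on day 0, 15256 to 15287 CPM on day 2 and 12797 to 12816 CPM on day 5. FN1 was the largest part of that sum, averaging 6385 CPM on day 0, 7689 CPM on day 2 and 6154 CPM on day 5. Beneath that sum the markers moved both ways. Of the 11, 4 were higher and 7 lower in day 5 against day 0. VIM averaged 1466 CPM on day 5 and 4851 CPM on day 0, and THY1 104 CPM and 427 CPM, while PDGFRA averaged 2641 CPM on day 5 and 334 CPM on day 0. The 12 neuron markers summed to 243 to 251 CPM on day 0, 149 to 156 CPM on day 2 and 107 to 111 CPM on day 5, most of it TUBB3, and DCX, STMN2, NEFM, ELAVL3 and ELAVL4 had at most 3 counts in every library. On day 5, 6 of the 12 were over 3 counts in a library. Among them SNAP25, a synaptic protein, was higher on day 5 than on day 0, with 281 and 362 counts against 146 and 175 (log2 fold change 1.64 ± 0.13), and MAP2 was lower (-3.92 ± 0.28). With several defining neuron markers at or near 0, the groups are called here by their day. The 6 smooth muscle and myofibroblast markers summed to 1759 to 1761 CPM on day 0, 727 to 733 CPM on day 2 and 119 to 121 CPM on day 5. Of the 5 tested, 4 were lower and 1 higher in day 5 against day 0. TAGLN averaged 800 CPM on day 0 and 5.58 CPM on day 5, and MYL9 824 CPM and 45.9 CPM. ACTA2 averaged 98.6 CPM and 65.0 CPM on the same days, and MYH11, the one higher, 0.342 CPM and 1.68 CPM. The part of these markers in the collagen results was not tested. The 8 chondrocyte markers, which include COL2A1, summed to 70.4 to 72.4 CPM on day 0, 62.6 to 65.6 CPM on day 2 and 126 to 134 CPM on day 5. MATN3 averaged 77.5 CPM on day 5 and 10.6 CPM on day 0, while SOX9 averaged 46.3 CPM and 51.7 CPM and COL9A2 4.17 CPM and 7.68 CPM on the same days. COMP had no counts on day 5, and ACAN and COL9A1 had at most 3 in every library. The single markers given here with values were chosen after their values were seen. The 6 osteoblast markers summed to 7.10 to 7.35 CPM on day 0. They summed to 12.3 to 13.0 CPM on day 2 and 6.90 to 8.08 CPM on day 5. Most of this was RUNX2, which averaged 6.32, 12.4 and 7.27 CPM on days 0, 2 and 5. ALPL had 18 and 29 counts on day 0 and 0 and 1 on day 5, and SP7, IBSP and DMP1 had 3 or fewer. The 10 markers of keratinocytes, endothelium, leukocytes and glia summed to 101 to 103 CPM on day 0. That sum was 140 CPM on day 2 and 59.0 to 61.7 CPM on day 5, most of it CD68.

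The likeness of other genes to the type I chains was measured as the Euclidean distance between their log2 fold changes in day 2 and in day 5 against day 0, over 3 days and among the 11050 genes whose mean CPM was 5 or more. Nearest to COL1A1 were KCNJ2 (distance 0.125), SYNPO2 (0.136), SRSF3 (0.147), ACOX2 (0.151) and SERTAD1 (0.248). Nearest to COL1A2 were KIAA0895L (0.027), AC008124.1 (0.046), FMC1 (0.057), ZNF785 (0.057) and AC006486.1 (0.071). Members were left out of these neighbours by rule. The distance rests on 2 fold changes that share the day 0 libraries, so near genes can be found among 11050 without a tie. Shared regulation was not tested.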

How the data were processed

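Expected counts per gene, which are estimates and so can hold decimals, were deposited by the authors in 1 table, per the file headers, with a gene length and mean columns that were not used as samples. Libraries were made with a TruSeq RNA kit from TRIzol-extracted, DNase-treated RNA, per the labels' protocols. Per the submitters' processing notes, the genome build was GRCh38. For the aligner, the counter, the annotation and strand, the answer is not given in the sources used here, so how reads shared by overlapping genes were divided is unknown.

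The table held 60843 genes, of which 172 without a name, with 0.0356 to 0.0475% of a library's counts, were left out. Of all values 87.2% were whole, to within 1e-09, and the rest were rounded. Named-gene totals ran from 17599504 to 27941919, so that the floor of 3 counts was 0.103 to 0.180 CPM. TPM were computed from counts and the deposited gene length and used only to compare genes.

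A model by day was fitted to the 6 libraries with the quasi-likelihood method of edgeR 4.0.16 under R 4.3.3, which left 3 residual degrees of freedom. It used TMM factors and filterByExpr (minimum count 10, total 15). Standard errors are the log2 fold change divided by the square root of F. Changes over 2-fold were tested with glmTreat. All p-values are two-sided. Steps were tested on simulated data. The alternatives were DESeq2 1.42.0, RLE factors, library totals, other filters, fits of only the days compared, the replicate number as a block, unrounded values, leaving out IGFBP5 and leaving out each library.

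The members and the lists of related genes were chosen with earlier results of these data known. All members, COL2A1 and COL11A2 were named whatever their result. Each other list gave its 4 tested genes of lowest adjusted p in day 5 against day 0, besides those said to be named after their values were seen.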

Additional observations from a re-analysis of the deposited data

How the results depend on the processing

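Over 15 other settings a comparison, 400 of 405 fold changes of the members kept their direction and their side of the threshold. The calls lost were those of COL11A1 in day 5 against day 2, at a log2 fold change of 0.28 with DESeq2 and 0.27 with no filter on low counts, and 0.27 to 0.28 in the 2 fits without a library that lost it. COL24A1 in day 2 against day 0, not called in any of them, ran from -0.2226 to 0.005073 when a day 0 library was left out and was -0.29 with library totals. The cause was not tested. The number of members over 2-fold lower in day 2 against day 0 was 1 to 2 when 1 library was left out. The number over 2-fold higher in day 5 against day 0 was 3 to 4 when 1 library was left out and 3 with library totals, COL11A1 being the one lost. Leaving IGFBP5 out of the table put the summed share of the members at day 5 at 2.83% in place of 2.53%, as the total is then smaller. COL1A2 in day 2 against day 0 ranged from 0.11 to 0.31 and COL3A1 from -0.28 to -0.07, with the largest shifts from library totals. Of 72 other values of the ratios between genes, 0 changed direction. The libraries of the days compared did not overlap in any ratio, and a ratio does not depend on scaling. Leaving out 1 library could therefore not reverse a direction, so this is no check of the ratios. The labels give the days the same replicate numbers, but deviations of same-numbered libraries correlated at 0.003, -0.002 and -0.005 over all genes, so the numbers were not taken to pair libraries. Single genes did differ by number. COL1A1, COL1A2, COL3A1 and COL5A2 had the higher CPM in the library numbered 2 on all 3 days, and with the block the standard error of COL1A1 in day 2 against day 0 was 0.010 in place of 0.023. With the replicate block 10900, 11353 and 10724 genes were called in day 2 against day 0, day 5 against day 0 and day 5 against day 2, where 10912, 11405 and 10746 were called without it, and no call of a member changed. With a replicate block the COL1A1 to COL1A2 log2 difference was the same, at -2.29, -1.70 and 0.58. Each day had 1 library of each number, so a block could not move this difference, and its sameness is no check. With 2 libraries a day, not known to be independent, the spread is poorly known, and the 14 and 21 counts of COL5A3 on day 0 limit its fold changes.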

Other observations

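COL2A1 had 15, 19 and 18 counts in the libraries numbered 1 of days 0, 2 and 5, and 1, 2 and 0 counts in those numbered 2. COL11A2 had 60, 56 and 56 counts in the first and 35, 30 and 55 in the second. Of the members, COL5A3 was the scarcest on day 0, with 14 counts in the first library and 21 in the second.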
